A study of Homo sapiens with 6 samples.

Results

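ANGPTL4 and the genes that control lipoprotein lipase were examined in RNA sequencing libraries of cells labelled Hep3B, a human hepatocellular carcinoma line. The genes were taken by symbol from the deposited table: the angiopoietin-like genes ANGPTL1, ANGPTL2, ANGPTL4, ANGPTL6 and ANGPTL8, the lipases LPL, LIPC and LIPG, and the lipase maturation factor LMF1. Of these 9 genes, 8 had a row among the 27009 genes, and LPL was not analysed here. Of the 8 genes, 3 (ANGPTL4, LIPG and LMF1) had 10 scaled reads or more in 3 or more libraries and so were among the 15076 genes tested. The set was selected on the higher ANGPTL4 values of the nPD-L1 libraries, the same contrast as described below, so the differences of its genes are given with no test.

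Both groups carried a knockout of endogenous PD-L1. The vector group (3 libraries) had received the empty vector, and the nPD-L1 group (3 libraries) a PD-L1 mutated so that it stays in the nucleus, delivered by lentivirus in pCDH-CMV-Puro, where a CMV promoter drives the insert. The lines were stable. The paper describes 3 independent sequenced samples per group, but neither the labels nor the methods say that these came from separate cultures. Errors and p values therefore measure the spread between these libraries only.

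Triglyceride in circulating lipoproteins is split by lipases at the vessel wall, and LPL, made mainly by fat and muscle cells, does most of this work. LMF1 folds these lipases in the endoplasmic reticulum, GPIHBP1 carries LPL across the capillary wall, and APOC2 activates it. ANGPTL4 and ANGPTL8 are secreted proteins that switch LPL off. ANGPTL4 is a classic target of the fatty acid receptors called PPARs and also responds to fasting, glucocorticoids and low oxygen, and proprotein convertases such as furin cut it. LIPC (hepatic lipase) is made by hepatocytes, and LIPG (endothelial lipase) prefers phospholipids of high-density lipoprotein.

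The sequences before the start sites of ANGPTL4 and LIPG are shown. ANGPTL4 differed most between the groups among the 3 tested genes of the set. Of the 2 lipases with a row, LIPG alone had more than a few reads. Each window is a RefSeq promoter window of assembly GRCh38.p14, from 250 bases before to 50 bases after the start site, 5′ to 3′ on the + strand. Both strands were searched for AGGTCA (the core hexamer of nuclear receptor sites), the direct repeat of that core site 1 base apart with up to 2 mismatches (the form PPARs bind), ACGTG (the hypoxia element), TGANTCA (AP-1), CAGACA (SMAD proteins) and TATAAA (the TATA box), and capitals mark the matches. The ANGPTL4 window is chr19:8363905-8364204 and the LIPG window is chr18:49561807-49562106.
ANGPTL4: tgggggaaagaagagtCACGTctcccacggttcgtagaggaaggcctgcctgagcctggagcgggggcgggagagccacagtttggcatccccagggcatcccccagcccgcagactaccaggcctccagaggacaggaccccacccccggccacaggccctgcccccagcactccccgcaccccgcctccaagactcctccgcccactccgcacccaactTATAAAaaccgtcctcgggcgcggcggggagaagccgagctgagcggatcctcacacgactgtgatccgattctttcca
LIPG: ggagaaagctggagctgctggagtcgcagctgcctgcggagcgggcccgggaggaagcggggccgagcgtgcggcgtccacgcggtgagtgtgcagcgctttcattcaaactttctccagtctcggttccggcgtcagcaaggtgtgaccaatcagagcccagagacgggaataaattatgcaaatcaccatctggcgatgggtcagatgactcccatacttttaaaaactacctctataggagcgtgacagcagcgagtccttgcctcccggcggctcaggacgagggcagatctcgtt
In the ANGPTL4 window, capitals mark a hypoxia element on the opposite strand (bases 17 to 21) and a TATA box on the same strand, which begins 29 bases before the start site. A TATA box on either strand was found in 11.5% of all 35116 windows and a hypoxia element in 21.4%. The LIPG window held none of the 6 motifs. The core site was found in 13.8% of all windows, its direct repeat in 2.97%, the AP-1 site in 7.71% and the SMAD element in 16.9%. RefSeq windows of 8 of the 9 genes were searched, all but LPL. Among the other 6 genes, the core site lay in LIPC and in 1 of the 3 windows of ANGPTL6, and a match to the direct repeat with 2 mismatches lay in LIPC alone, overlapping its core site. These matches describe the letters of the windows and not the binding of any factor.

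Values are scaled reads, that is, reads per gene after division by a factor for library size, and they summed to between 18082164 and 19682128 per library. Where the reads could be recovered (4 libraries), the depth was 17427519 to 22253295 reads on genes. CD274, which encodes PD-L1 (chromosome 9, 5450503 to 5470566), had 28.3, 38.4 and 47.8 scaled reads in vector replicates 1 to 3 and 16.8, 19.2 and 30.9 in nPD-L1 replicates 1 to 3. CD274 RNA was thus no higher in the cells given a PD-L1 coding sequence, which goes against the label. The paper reports PD-L1 enforced in the nucleus of Hep3B cells, examined as protein by immunoblot and cell fractionation. Because of the RNA values, the second group is called below the libraries labelled nPD-L1, and every direction rests on the labels.

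The labelled cell type was checked against hepatocyte markers. Of 10 markers, 8 had a row, and 5 of these (ALB, APOA1, APOB, TF and TTR, which encode albumin and other major plasma proteins of the liver) stayed below 10 scaled reads in every library. ALB had 2.02, 1.13 and 0 scaled reads with the vector and 0 in every library labelled nPD-L1. SERPINA1 (alpha-1-antitrypsin) ranged from 7.91 to 41.4 over the 6 libraries, and FGB (fibrinogen beta chain) from 962 to 1540. HNF4A, a hepatocyte transcription factor, had 19.2, 11.3 and 6.24 scaled reads with the vector, against 51.3, 51.6 and 33.8 in those labelled nPD-L1 (log2 difference 1.91, SE 0.42, adjusted p = 0.0232 in limma). The 5 markers below 10 scaled reads go against the label of a hepatocellular line, whereas FGB was well above the filter in every library. AFP and GPC3, also on the list, were not analysed here. The markers were thus mixed, and the origin of the cells was not tested.

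**Figure D1:**
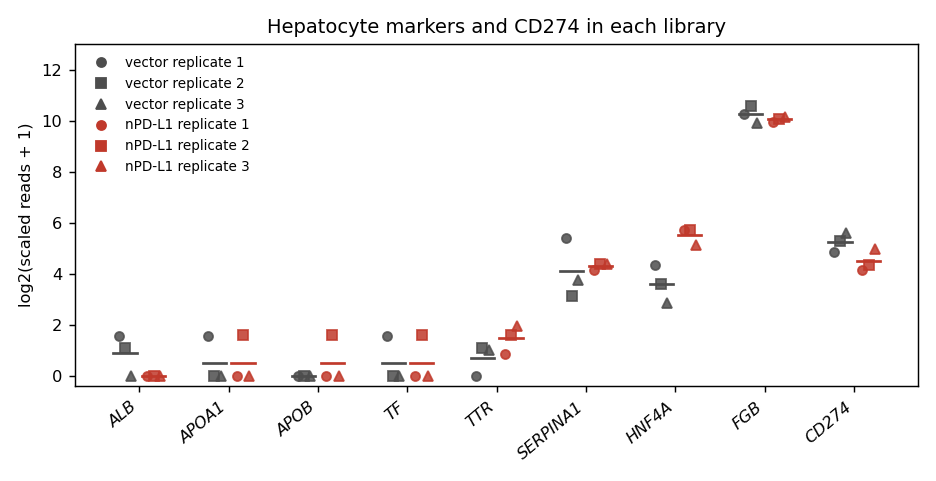
Scaled reads of 8 hepatocyte markers and of CD274 in each library, as log2(scaled reads + 1). Points are libraries (vector in grey, labelled nPD-L1 in red) and bars are means of 3. ALB, APOA1, APOB, TF and TTR lie near 0 in all libraries, FGB lies between 962 and 1540 scaled reads, and CD274 is not higher in the libraries labelled nPD-L1.

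Of the angiopoietin-like inhibitors ANGPTL4 and ANGPTL8, only ANGPTL4 was above the filter. The mean of ANGPTL4 in the libraries labelled nPD-L1 was 8.91 times that with the vector. ANGPTL4 (ENSG00000167772, chromosome 19, 8363289 to 8374373, + strand, GRCh38) had 359, 377 and 424 scaled reads in vector replicates 1 to 3, against 4322, 2966 and 3049 in those labelled nPD-L1. The groups were far apart, since the lowest library labelled nPD-L1 was 7.0 times the highest vector library, whereas libraries of one group differed at most 1.18-fold (vector) and 1.46-fold (labelled nPD-L1). The means were 387 ± 33.4 and 3446 ± 760 scaled reads (SD, n = 3 each). In recovered reads, this rested on 334 and 408 reads in vector replicates 2 and 3 and on 5143 and 3161 reads in nPD-L1 replicates 1 and 3.

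On the log2(value + 1) scale, ANGPTL4 differed by 3.13 (SE 0.15), and 44 of the 15076 tested genes had a higher value. The difference was 2.96 to 3.23 with each library left out in turn, and it was lowest without nPD-L1 replicate 1, the library with the most ANGPTL4. Among ANGPTL4, LIPG and LMF1, 1 gene had no overlap between the groups, as did 20.6% of all tested genes in either direction and 12.0% in the higher direction. That count follows from how the genes were picked. Per kilobase of gene length, the ANGPTL4 level was 156 ± 13.5 scaled reads in the vector libraries, above 67.1% of the tested genes, and 1388 ± 306 in the libraries labelled nPD-L1, above 96.4% (SD, n = 3 each). In these bulk samples, more cells that transcribe a gene and more RNA per cell cannot be told apart.

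**Figure D2:**
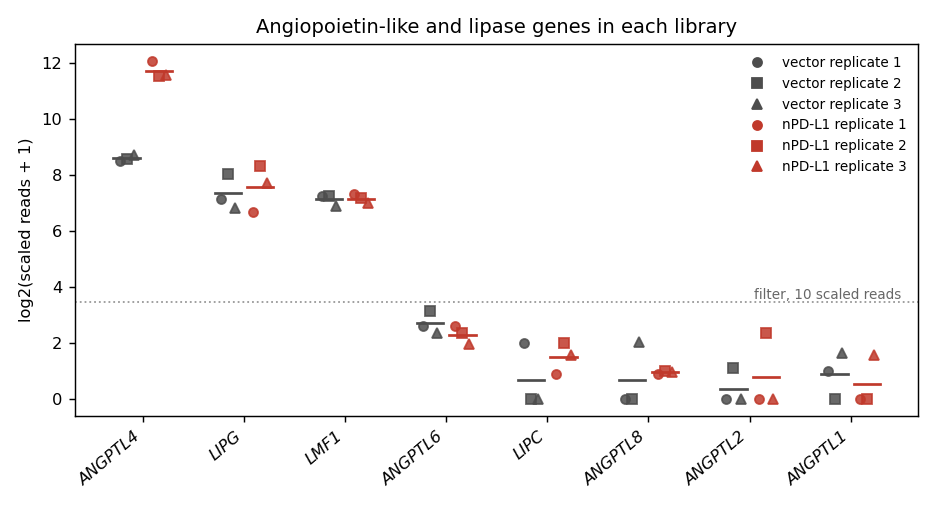
Scaled reads of the 8 genes with a row in each library, as log2(scaled reads + 1), ordered by mean. Points are libraries and bars are means of 3, and the dotted line is the filter of 10 scaled reads. ANGPTL4 is separated between the groups, LIPG and LMF1 overlap, and the other 5 genes stay below the line in every library.

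The markers of other cell types were summed beside this difference. In the list of fibroblast and stellate cell markers (5 of 7 with a row), the sum was 232 to 306 scaled reads with the vector, against 656 to 706 in those labelled nPD-L1. Of its members tested, COL1A1 (a collagen chain) had 49.9 to 82.8 scaled reads with the vector and 445 to 487 with the nPD-L1 label, while LUM (log2 difference 0.10, SE 0.24) and ACTA2 (−0.09, SE 0.24) overlapped between the groups, and the defining markers PDGFRB and DCN stayed below 10. The sums of adipocyte markers (4 of 7 with a row) were 168 to 247 and 142 to 171 scaled reads, nearly all of them LIPE, with ADIPOQ and PLIN1 below 10. Endothelial markers (5 of 7) summed to 58.7 to 94.9 and 76.2 to 81.9, macrophage and leukocyte markers (3 of 7) to 3.12 to 13.6 and 13.1 to 27.7, and muscle markers (2 of 5) to 4.16 to 9.08 and 1.01 to 13.5. Their part in the ANGPTL4 difference was not tested.

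The other angiopoietin-like genes were at the limit of detection in both groups, so ANGPTL4 made up 97.1% to 98.2% of the level per kilobase of the 5 genes in the vector libraries and 99.7% to 99.8% in the libraries labelled nPD-L1. ANGPTL8 (chromosome 19, 11237450 to 11241943), which takes part in LPL inhibition after a meal, had 0, 0 and 3.12 scaled reads with the vector, against 0.84, 1.01 and 0.96 in those labelled nPD-L1, or between 0 and 3 recovered reads. ANGPTL6 (chromosome 19, 10092338 to 10102796) was the highest of them, with 5.05, 7.91 and 4.16 scaled reads with the vector, against 5.04, 4.05 and 2.89 in those labelled nPD-L1, and the groups overlapped.

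ANGPTL1, on chromosome 1, had 1.01, 0 and 2.08 scaled reads with the vector, against 0, 0 and 1.93 in those labelled nPD-L1. ANGPTL2, on chromosome 9, had 0, 1.13 and 0 with the vector and 0, 4.05 and 0 with the nPD-L1 label. With a limit of 3 reads taken for a count of 0, a difference in ANGPTL1, ANGPTL2 or ANGPTL8 was not detectable at this depth, and no fold is given for them.

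Of the 2 lipases with a row (LIPC and LIPG), LIPG alone was above the filter. LPL was not analysed here. LIPG (chromosome 18, 49560699 to 49599182, + strand) had 139, 264 and 113 scaled reads with the vector, against 102, 316 and 210 in those labelled nPD-L1. Replicate 2 was highest in each group, and the groups overlapped throughout. The means were 172 ± 80.7 and 209 ± 107 (SD, n = 3 each), and the log2 difference was 0.23 (SE 0.41), smaller than the spread between libraries. Its sign depended on single libraries, since the difference was −0.02 without vector replicate 3, −0.14 without nPD-L1 replicate 2 and 0.67 without nPD-L1 replicate 1. LIPC (chromosome 15) had 3.03, 0 and 0 scaled reads with the vector, against 0.84, 3.03 and 1.93 in those labelled nPD-L1, at or under the limit of 3 reads.

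LMF1 (chromosome 16, 853634 to 981318, − strand) had 151, 152 and 117 scaled reads with the vector, against 158, 144 and 125 in those labelled nPD-L1. Replicate 3 was lowest in both groups and the groups overlapped, with means of 140 ± 19.9 and 142 ± 16.3 (SD, n = 3 each). The log2 difference was 0.02 (SE 0.18), and it lay between −0.10 and 0.11 with each library left out.

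Per kilobase, the order of levels in the vector libraries was ANGPTL4, LMF1 (17.1 ± 2.42) and LIPG (13.1 ± 6.16), followed by ANGPTL6 (2.61 ± 0.90) and the 4 genes near 0. ANGPTL4, LMF1, LIPG and ANGPTL6 had the same order in the libraries labelled nPD-L1, with LMF1 at 17.3 ± 1.98, LIPG at 16.0 ± 8.16 and ANGPTL6 at 1.83 ± 0.49. LMF1 and LIPG, neighbours in this order, did not differ beyond their spread in either group. LMF1 exceeded 22.3% of the tested genes in the vector libraries and LIPG 18.7%. The ratio of ANGPTL4 to LIPG per kilobase ranged from 7.54 to 19.8 over the vector libraries and from 49.7 to 225 over the libraries labelled nPD-L1.

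The genes known to act with or on ANGPTL4 and the lipases were then taken from 12 lists, drawn up with earlier results of these data known. Over all tested genes, 609 were higher and 139 lower in the libraries labelled nPD-L1 at an adjusted p under 0.05 in limma (4.04% and 0.922%, together 4.96%), with a median log2 difference of −0.02. The lists held 122 genes. Of these, 110 had a row and 92 were tested, with 17 higher, 2 lower and a median of 0.09. The lists of lipase cofactors, of folding and transport genes, of lipoprotein receptors, of cell surface partners and of other angiopoietins had no gene past the test.

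**Figure D3:**
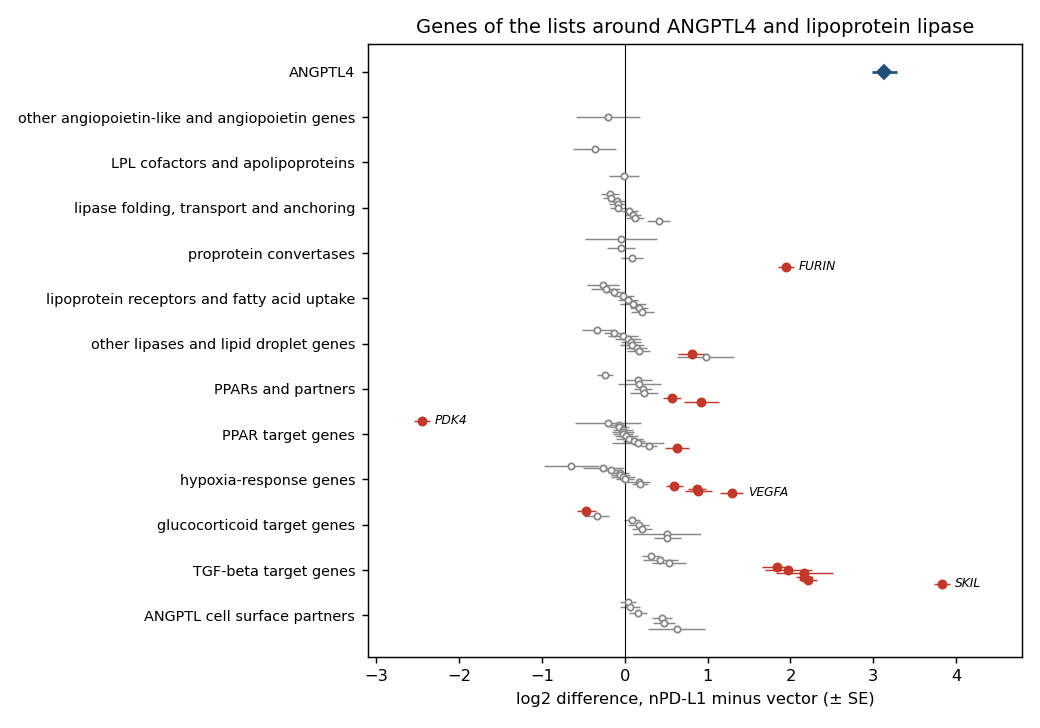
Log2 difference (nPD-L1 minus vector) with its SE for the tested genes of the 12 lists that are reported here, and for ANGPTL4 at the top. Filled red points passed an adjusted p under 0.05 in limma and open points did not. The 5 red TGF-beta target points between 1.83 and 2.21 without a name are PMEPA1, SNAI1, CTGF, BHLHE40 and SMAD7 in rising order, and SKIL at 3.83 lies farthest from 0 among the list genes drawn.

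Among proprotein convertases, 1 of 4 tested genes passed. FURIN, which cuts ANGPTL4 into its coiled-coil and fibrinogen-like parts, had 1273, 1457 and 1286 scaled reads with the vector, against 5301, 5295 and 4864 in those labelled nPD-L1. The groups did not overlap, and FURIN rose by 1.95 on the log2 scale (SE 0.10, adjusted p = 1.2e-06 in limma). PCSK6 (log2 difference 0.09, SE 0.13) and PCSK7 (−0.04, SE 0.17), convertases of the same family, did not pass the test. The median of the 4 genes was 0.02.

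Among the cofactors and apolipoproteins, 2 of 8 listed genes were tested and neither passed. APOC1, which hinders lipolysis, had 783 ± 238 and 759 ± 52.9 scaled reads (SD, n = 3 each), and APOE, a ligand of lipoprotein receptors, had 75.2 ± 22.3 and 57.2 ± 9.65. APOB had 2.02 scaled reads in nPD-L1 replicate 2 and 0 in the other libraries, and the other 5 genes of the list, APOC2 among them, were not analysed here. Of the lipase folding, transport and anchoring genes, none of 9 tested passed, and their median log2 difference was −0.08. The chaperones CANX (0.06, SE 0.11), HSPA5 (−0.09, SE 0.11), CALR (−0.16, SE 0.10) and PDIA4 (−0.09, SE 0.10) had the highest scaled reads of the list. GPIHBP1 had 6.06, 11.3 and 4.16 scaled reads with the vector, against 0, 3.03 and 0.96 in those labelled nPD-L1, below the filter.

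None of 9 tested lipoprotein receptors and fatty acid uptake genes passed (median −0.02). SCARB1, the receptor of high-density lipoprotein, had 3857 ± 839 and 4101 ± 559 scaled reads (SD, n = 3 each). SLC27A4, a fatty acid transporter, differed by 0.04 (SE 0.12), and LRP8, a receptor of apolipoprotein E, by 0.18 (SE 0.11). Of the other lipases and lipid droplet genes, 1 of 10 tested passed, with a median of 0.08. LIPH, a phospholipase that makes lysophosphatidic acid, rose from 450, 610 and 363 scaled reads to 717, 876 and 864 (log2 difference 0.81, SE 0.18, adjusted p = 0.0231 in limma). The call for LIPH was lost without vector replicate 1 (adjusted p = 0.109 in limma) and without nPD-L1 replicate 1, 2 or 3 (0.0626, 0.0976 and 0.133).

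Among PPARs and their partners, 3 of 8 tested genes rose and none fell, with a median of 0.23. On the 4 libraries with recovered reads, 1 was called higher in each of limma, edgeR and DESeq2. RXRA, the partner with which PPARs bind DNA, rose by 0.57 (SE 0.11, adjusted p = 0.00942 in limma), a call lost without vector replicate 1 (0.0543) or nPD-L1 replicate 1 (0.0573). PPARGC1B, a coactivator, rose by 0.92 (SE 0.21, adjusted p = 0.031 in limma), a call lost without vector replicate 1 (0.154) and without nPD-L1 replicate 1, 2 or 3 (0.131, 0.101 and 0.146). The receptors themselves did not pass: PPARG had 1792 ± 123 and 1521 ± 26.4 scaled reads, PPARD 226 ± 42.9 and 263 ± 23.5, and PPARA 43.4 ± 9.60 and 48.8 ± 6.97 (SD, n = 3 each).

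Of 14 tested PPAR target genes, 1 rose and 1 fell, and their median was 0.00. PDK4, a kinase that shuts pyruvate dehydrogenase and is, like ANGPTL4, induced by PPARs on fasting, had 7769, 7937 and 7827 scaled reads with the vector, against 1490, 1320 and 1500 in those labelled nPD-L1. The PDK4 groups did not overlap, and it fell by 2.45 on the log2 scale (SE 0.09, adjusted p = 2.3e-07 in limma), the direction opposite to that of ANGPTL4. ACSL1, which activates long-chain fatty acids, rose by 0.64 (SE 0.15, adjusted p = 0.0314 in limma). The call for ACSL1 was lost without any one of 5 libraries, namely vector replicate 1 (0.165) or 3 (0.055) and nPD-L1 replicate 1 (0.0725), 2 (0.162) or 3 (0.0911). CPT1A, an enzyme of fatty acid oxidation, did not pass (0.29, SE 0.09). Without vector replicate 2, 2 genes of the list were called higher.

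Of 13 tested hypoxia-response genes, 4 rose and none fell, with a median of 0.00. On the 4 libraries with recovered reads, the count called higher was 1 in limma, 1 in edgeR and 2 in DESeq2. VEGFA, the vascular growth factor, had 1044, 787 and 1134 scaled reads with the vector, against 2587, 2258 and 2340 in those labelled nPD-L1 (log2 difference 1.29, SE 0.14, adjusted p = 0.00023 in limma). NDRG1 rose by 0.87 (SE 0.11), EGLN3, an oxygen-sensing hydroxylase, by 0.89 (SE 0.16), and KDM3A, a histone demethylase, by 0.60 (SE 0.10). The call for EGLN3 was lost without vector replicate 1 (adjusted p = 0.0558 in limma). LDHA (0.00, SE 0.11), PGK1 (−0.05, SE 0.11) and SLC2A1 (0.18, SE 0.09), which serve glycolysis, did not pass.

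Of 7 tested glucocorticoid target genes, 1 fell and none rose. TSC22D3 (GILZ) fell by 0.46 on the log2 scale (SE 0.11, adjusted p = 0.0437 in limma), and its call was lost without vector replicate 1 (0.192) or 3 (0.0992) and without nPD-L1 replicate 1 (0.0893), 2 (0.156) or 3 (0.214). FKBP5 (0.21, SE 0.12) and PER1 (0.52, SE 0.16) did not pass, and the median of the list was 0.17. Without vector replicate 2, 1 gene of the list was called higher.

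TGF-beta is known to induce ANGPTL4 in breast cancer cells. Of 10 tested TGF-beta target genes, 7 rose and none fell, with a median of 2.07. SKIL, a brake on SMAD signaling, had 599, 623 and 621 scaled reads with the vector, against 8441, 8317 and 9553 in those labelled nPD-L1, which was 3.83 on the log2 scale (SE 0.10, adjusted p = 1.4e-08 in limma).

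SMAD7, the inhibitory SMAD (2.21, SE 0.11), BHLHE40 (2.17, SE 0.10), PMEPA1 (1.83, SE 0.17) and SNAI1, a repressor of E-cadherin (1.97, SE 0.28), also rose, with no overlap between the groups. CTGF, a secreted matrix protein, rose by 2.17 (SE 0.34), and its call was lost without vector replicate 2 (adjusted p = 0.11 in limma). TGFBI (0.53, SE 0.21), LTBP2 (0.43, SE 0.21) and TGIF1 (0.31, SE 0.10) did not pass. Since this list was chosen with results of these libraries known, its count is not independent evidence of a direction.

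The proteins at the cell surface to which angiopoietin-like proteins bind had no gene past the test among 6 tested, although all 6 differences were above 0 (median 0.31). ITGB1 (0.07, SE 0.12), ITGB5 (0.04, SE 0.10), ITGAV (0.47, SE 0.13, adjusted p = 0.0759 in limma) and ITGA5 (0.45, SE 0.12, adjusted p = 0.065 in limma) are integrin subunits. The list had 1 gene called higher without vector replicate 2, 2 without vector replicate 3 and 2 with no filter on low values. ANGPT1, the only tested gene among the other angiopoietins and angiopoietin-like genes, had 57.9 ± 9.88 and 55.6 ± 27.1 scaled reads (SD, n = 3 each).

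The genes beside ANGPTL4 were examined for differences of their own. Of the 5 nearest tested genes on each side, none passed, and their log2 differences ranged from −0.77 (AC008946.1, SE 1.07) to 0.92. The value of 0.92 (SE 0.38, adjusted p = 0.28 in limma) belonged to RAB11B-AS1, whose span shares 1 base with the end of ANGPTL4. RAB11B-AS1 had 11.1, 10.2 and 9.35 scaled reads with the vector, against 16.0, 24.3 and 21.2 in those labelled nPD-L1, with no overlap. Whether the counting used strand is not given in the sources used here. On its other side, KANK3 (−0.40, SE 0.26), RPS28 (−0.25, SE 0.19), CD320 (−0.29, SE 0.14) and CERS4 (0.14, SE 0.31), a ceramide synthase, did not pass, nor did RAB11B (−0.04, SE 0.12), MARCHF2 (0.28, SE 0.20), HNRNPM (−0.16, SE 0.11) or ZNF414 (−0.18, SE 0.15).

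Spans of other genes, introns included, overlap most of the low genes. Whether their exons overlap was not examined, so how far reads of such pairs mix without strand is not known here. ANGPTL8 lies within DOCK6 (395 ± 49.6 and 407 ± 42.1 scaled reads), ANGPTL1 within RALGPS2 (523 ± 140 and 536 ± 27.9) and ANGPTL2 within RALGPS1 (132 ± 11.1 and 145 ± 38.8). ANGPTL6 shares 915 bases with C19orf66 (90.6 ± 15.8 and 88.4 ± 14.3), and LIPC overlaps ALDH1A2, which had at most 2.26 scaled reads. LMF1 overlaps 5 genes, of which AC009041.4 and AC009041.2 were tested and AL031716.1, LMF1-AS1 and AL008727.1 stayed below the filter. None of the overlapping genes passed the test, and LIPG had no overlapping gene.

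The genes whose pattern over the 6 libraries was most like that of ANGPTL4 were sought among the 10722 tested genes that averaged 100 scaled reads or more. They were WNT9A (Pearson r = 0.999), CSRNP1 (0.998), RCL1 (0.998), RARA (0.997) and NACC2 (0.997). WNT9A, a secreted WNT ligand, had 20.4 and 247 scaled reads on average in the vector libraries and those labelled nPD-L1, and RARA, a retinoic acid receptor, 334 and 2183. For ANGPTL4, r exceeded 0.95 for 302 genes, and each of the 5 named follows the split between the groups. RCL1 differed by only 0.63 on the log2 scale (SE 0.09), since r does not depend on the size of a difference.

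For LIPG, the most similar were MAGT1 (0.993), GCNT2 (0.992), SH3BGRL2 (0.988), DCUN1D4 (0.986) and CP (0.985). These genes did not follow the groups, with log2 differences of 0.02 to 0.08, and like LIPG they were highest in nPD-L1 replicate 2 and lowest in nPD-L1 replicate 1. CP, ceruloplasmin, had 567, 673 and 559 scaled reads with the vector, against 530, 747 and 641 in those labelled nPD-L1. These correlations describe 6 libraries that share the same processing and carry no test.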

How the data were processed

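RNA from 6 libraries (3 vector, 3 nPD-L1) was prepared with the NEBNext Ultra kit. The submitters' processing notes name CASAVA, HISAT2 2.0.5 and hg38, and the counter and annotation are not given in the sources used here. The deposited values are a signal, whole reads per gene divided by a size factor, although the table presents them as raw. They are whole multiples (within 0.02 reads) of the value of 1 read in 100% of cases. These reads were used for 4 libraries (replicates 2 and 3 of vector, 1 and 3 of nPD-L1), and in the other 2 the step lay too close to 1. The authors' deposited log2 fold changes, p-values and adjusted p-values were not used.

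Libraries were grouped by sample title. log2(value + 1) was analyzed with limma 3.58.1 (R 4.3.3; trend, robust) for the 15076 genes that had 10 scaled reads or more in 3 or more libraries, with Benjamini-Hochberg adjustment over all of them. Differences on this scale understate low genes. edgeR 4.0.16 and DESeq2 1.42.0 were run on the recovered reads of 4 libraries. Tested on simulated data (15011 genes, 199 changed), limma on 3 against 3 libraries recovered 57.5% of 2-fold and 96.5% of 4-fold changes, and 5.92% of 169 calls were on unchanged genes.

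The 9 genes and all lists were chosen with earlier results of these data known. Named were the 9 genes, called genes of a list or up to 4 of it by mean, overlapping genes, the 5 nearest tested genes on each side of ANGPTL4, the 5 genes most like ANGPTL4 and LIPG, and CD274. Others (GPIHBP1, the PPARs and the uncalled genes of lists with calls) were added after their values were seen. Some genes of the lists enter the counts and medians but are not reported here by name. CTGF is listed as CCN2 in current annotation, and MARCHF2 was found by its gene ID. Alternatives were other pseudocounts, filters, scalings and moderation, a replicate block, each library left out and the fits on 4 libraries.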

Additional observations from a re-analysis of the deposited data

How the results depend on the processing

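The differences of ANGPTL4, LIPG and LMF1 moved by less than the spread between replicates under all 18 alternatives: ANGPTL4 lay between 2.96 and 3.23, LIPG between −0.27 and 0.67, and LMF1 between −0.10 and 0.11, so the sign of the latter pair was not settled. On the 4 libraries with recovered reads, LIPG was −0.24 in limma (chosen after seeing the data), −0.27 in edgeR and −0.27 in DESeq2. None of the tested genes overlapping one of the 9 genes or next to ANGPTL4 was called under any alternative.

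List genes called higher (17 of 92) numbered 9 in limma, 10 in edgeR and 11 in DESeq2 on the 4 libraries, and 12 to 19 with each library left out, and 22 with the replicate block, 2 of them cell surface partners. Those called lower (2) numbered 1 with no filter, with equal library totals and in limma, edgeR and DESeq2 on the 4 libraries, and 1 to 2 with each library left out. Of the 19 called list genes, 10 kept their call under all 18 alternatives, and all 19 kept their direction. On the 4 libraries NDRG1 (adjusted p = 0.0508 in limma) and KDM3A (0.212 in limma) also lost their calls, and CTGF did with no filter (0.153 in limma). EGLN3, RXRA, PPARGC1B, LIPH, ACSL1 and TSC22D3 lost theirs in limma, edgeR and DESeq2 on the 4 libraries. There, CTGF lost its call in limma (adjusted p = 0.0682).

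Over the whole table, 609 higher and 139 lower genes became 350 to 793 and 77 to 244 with each library left out, and, on the 4 libraries, 254 and 53 by limma, 235 and 48 by edgeR and 333 and 85 by DESeq2, and 1436 and 710 at an unadjusted p under 0.05 (added after seeing the data). The higher count was lowest without nPD-L1 replicate 3 (350), 1 (356) or 2 (403), and the lower count was 78 without vector replicate 1, 244 without vector replicate 2, and 84, 86 and 77 without nPD-L1 replicates 1, 2 and 3. Fewer libraries entered those fits, and the cause was not tested beyond that. Whether replicate numbers pair the libraries was not settled. The correlations of deviations of same-numbered libraries were −0.01, 0.23 and 0.13. Replicates 2 and 3 correlated best with the library of their own number, whereas vector replicate 1 correlated best with nPD-L1 replicate 3 (0.07). With the replicate number as a block, 927 genes were higher and 258 lower, and among the list genes CTGF lost its call (adjusted p = 0.127 in limma). The depth, at most 22253295 reads on genes, leaves genes of a few reads such as ANGPTL8 and LIPC without a usable difference.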
